A study of Mus musculus with 6 samples.

Results

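Autophagy is the route by which cells wrap cytoplasm, protein aggregates and worn organelles in a membrane, the autophagosome, and deliver them to lysosomes for breakdown, and mitophagy is its selective form for mitochondria. The ULK1 kinase starts the process, the Beclin 1 lipid kinase complex and WIPI proteins build the first membrane, ATG8 proteins such as LC3 and GABARAP are attached to that membrane, and cargo receptors such as p62 tie the cargo to them. In heart muscle, a tissue packed with mitochondria, mitophagy is known for clearing mitochondria that have lost their membrane potential.

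The mRNA levels of 10 genes of this route were described: the cargo receptor and ATG8 genes Sqstm1, Map1lc3a, Map1lc3b and Gabarapl1, the mitophagy genes Pink1, Bnip3l and Fundc1, and the initiation and membrane genes Ulk1, Becn1 and Wipi1. They were taken by their official symbols from a table of 26199 genes, and all 10 were found and passed the filter on low values, at least 1 FPKM in at least 3 of the 6 libraries. The libraries came from mouse hearts at embryonic day 12, in 3 control replicates of genotype Mrps5 fl/fl and 3 mutant replicates of genotype Mrps5 fl/fl; cTNT-Cre, which were littermates. By the study's text each replicate pooled several hearts, so every SD here is a spread between pools and not between single embryos. Mrps5 encodes a protein of the mitochondrial ribosome, both groups carry the floxed alleles, and the Cre recombinase, driven by the cardiac troponin T promoter, removes the gene in cardiomyocytes while other cells of the heart keep it. RNA of whole hearts was depleted of ribosomal RNA and made into strand-specific libraries, and the values are FPKM, fragment counts scaled by transcript length and library size. Values of a group are given in the order of its replicates 1, 2 and 3. The comparison asks which transcripts differ in hearts that lose Mrps5 before the embryos die.

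Mrps5 itself was at 9.65, 11.4 and 10.4 FPKM in the controls and at 5.28, 7.41 and 10.4 FPKM in the mutants. The library labelled mutant replicate 3 thus fell inside the span of the controls. For Mrps5 the log2 fold change was -0.44 ± 0.19 (SE, unadjusted p = 0.0525 and adjusted p = 0.339 from limma). Each library summed to between 454692 and 515952 FPKM, the read depth is unknown, and 12832 to 13516 genes reached 1 FPKM. All 10 cardiomyocyte markers were at 1 FPKM or more in every library, with a sum of 10338 to 12475 FPKM in control and 8335 to 9968 FPKM in mutant hearts. Of 15 erythroid markers 14 were in the table, none at 0, and their share of all FPKM was 12.3%, 13.3% and 12.0% in the controls and 23.5%, 10.8% and 22.0% in the mutants. The cardiomyocyte sum was thus lower in every mutant library, and the erythroid share was higher than in any control in mutant replicates 1 and 3 and lower than in any control in mutant replicate 2. In whole hearts, fewer cells of a type and less RNA per cell cannot be told apart. The fit was repeated with the erythroid level as a covariate and with libraries scaled without erythroid markers, and beyond these the part of the shifts in the results was not tested.

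Across the 10 genes, no shared direction was seen in the mutant hearts. Sqstm1, which encodes p62, had the largest difference, 62.1 ± 7.15 FPKM (SD, n = 3) in mutant against 46.2 ± 4.72 FPKM (SD, n = 3) in control hearts, a ratio of means of 1.35. It was the only gene of the 10 with an unadjusted p under 0.05, and none of the 10 had an adjusted p under 0.05 in limma with Benjamini-Hochberg adjustment over 13262 genes. On the log2(FPKM + 1) scale 5 genes lay above and 5 below the control mean, their log2 fold changes running from -0.27 to 0.42 around a median of 0.00. Over all genes tested the median was -0.02. The median size of the log2 fold change, regardless of sign, was 0.10 among the 10 genes and 0.12 among all genes.

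Read against the background, the single gene of 10 with an unadjusted p under 0.05 compares with 15.0% of all genes tested. In the direction of higher values in mutant hearts it is 1 of 10 against 5.58% of all genes, and in the direction of lower values 0 of 10 against 9.43%. The split of all genes by direction depended on the fit. It was 740 higher and 1251 lower as reported, 962 and 1057 when scaled without erythroid markers, and 667 and 692 with the erythroid covariate. At an adjusted p under 0.05 the count is 0 of 10 against 0.0829%, or 11 genes in all. Those 11 became 123 without mutant replicate 2 and 261 without mutant replicate 3. In 3 of the 10 genes the values of the groups did not overlap, higher in Sqstm1 and Becn1 and lower in Wipi1, against 20.8% of all genes, and under 2 other scalings and with the most abundant transcript alone the count was 2, without Wipi1. Without mutant replicate 2 it was 5, against 35.7% of all genes in that fit. The count at an unadjusted p under 0.05 was 2 without control replicate 1, mutant replicate 2 or mutant replicate 3, against 9.01%, 16.6% and 15.3% of all genes. The counts over all libraries lie near the background of the whole table and are no result about the 10 genes as a group.

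**Figure D1:**
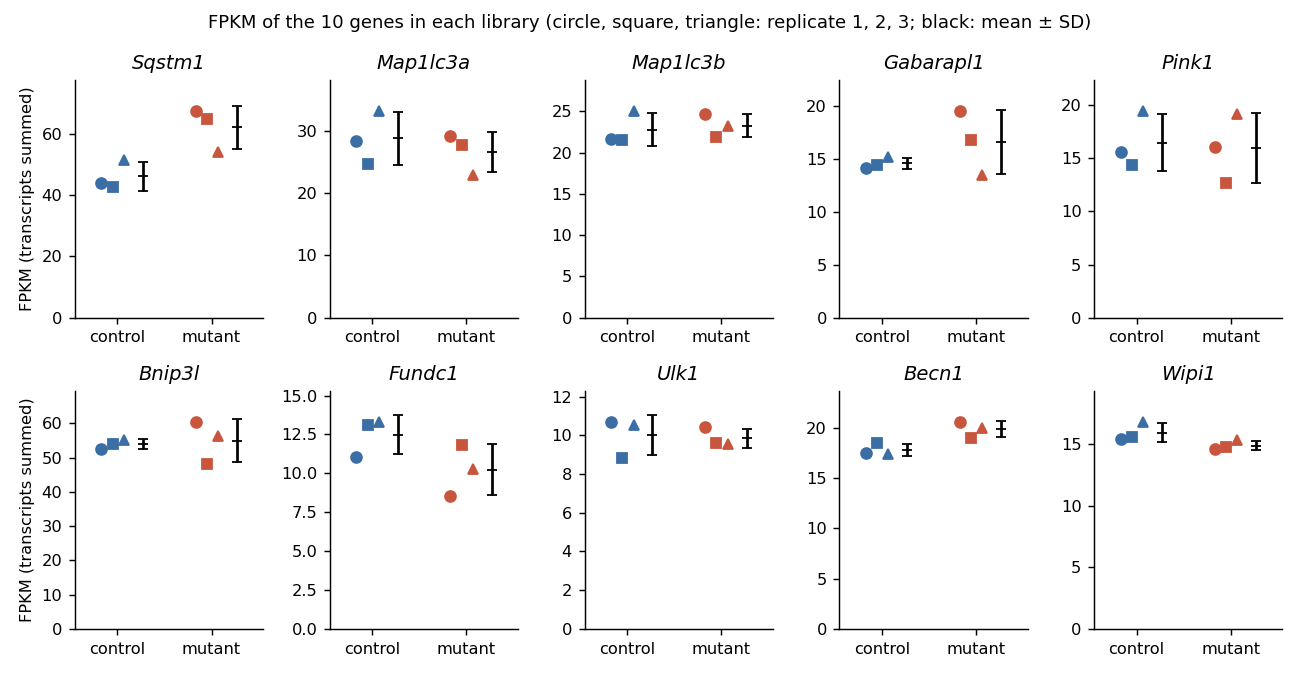
FPKM of each of the 10 genes (vertical axes, each from 0) in the control and mutant libraries, 1 point per library, with the mean ± SD of each group (n = 3) in black. The points of the groups are apart for Sqstm1, Becn1 and Wipi1 and overlap for the other genes.

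Upstream sequence of the genes was taken from RefSeq (build GRCm38.p6), 250 bases before to 50 bases after the start, for the 7 of 10 genes that matched, namely Sqstm1, Map1lc3b, Gabarapl1, Pink1, Fundc1, Ulk1 and Wipi1. The windows were searched on both strands for TGATGCAA, the composite element of ATF4 and CHOP. CACGTG, the core of the element bound by the lysosomal regulator TFEB, was searched as well. So was ACGTG, a form of the hypoxia element, which lies within CACGTG. Other forms of the hypoxia element were not searched. None of the 7 windows held TGATGCAA, CACGTG or ACGTG, while 0.895%, 7.15% and 19.6% of all 32851 promoters held them. After the sequences had been seen, GGGCGG, the GC box bound by SP1, was searched too. Of the 7 windows 6 held it, all but that of Fundc1. It also stood in 51 of 73 other autophagy genes, against 35.7% of all promoters. Shares of all promoters count promoters, and those of the autophagy genes count genes. TATAAA, the letters of the TATA box, was searched at the same time on both strands. It stood in the window of Sqstm1 alone among the 7 and in 5 of the 73, against 13.6% of all promoters. Neither upstream stretch of Sqstm1 free of exons of protein-coding transcripts held it on either strand. The 2 matched genes whose groups did not overlap are shown here, on the minus strand and only over bases that no exon of a protein-coding transcript covers, with capitals for GGGCGG or its reverse complement. A second such stretch of Sqstm1, of 40 bases and without a GC box, is not shown.
Sqstm1, chr11:50210828-50210889: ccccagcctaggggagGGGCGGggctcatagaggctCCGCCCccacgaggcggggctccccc
Wipi1, chr11:109611433-109611639: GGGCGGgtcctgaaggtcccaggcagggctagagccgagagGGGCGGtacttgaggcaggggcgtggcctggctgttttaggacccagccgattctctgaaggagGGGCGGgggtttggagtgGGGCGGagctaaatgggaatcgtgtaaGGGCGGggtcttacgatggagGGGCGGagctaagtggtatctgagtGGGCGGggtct
The Sqstm1 stretch of 62 bases held 2 GC boxes, 1 on each strand, and the Wipi1 stretch of 207 bases held 7, all on the strand shown. A match of letters is a description of the window and does not show binding. An exon of the neighbouring gene Mgat4b, on the opposite strand, borders the Sqstm1 stretch, and whether the deposited values were counted by strand is not stated.

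Among the cargo receptor and ATG8 genes, Sqstm1 (ENSMUSG00000015837) was at 44.1, 42.8 and 51.6 FPKM in the controls and at 67.6, 64.8 and 54.1 FPKM in the mutants. p62 binds both ubiquitin on cargo and LC3 on the membrane, and is itself broken down with the cargo. Every mutant library was above every control library, with mutant replicate 3, the library with Mrps5 at the control level, the closest to the controls. The log2 fold change of Sqstm1 was 0.42 ± 0.11 (SE, 95% interval 0.16 to 0.68), with an unadjusted p of 0.00573 and an adjusted p of 0.172 from limma. Over 15 other settings of the fit the adjusted p lay between 0.0616 and 0.500 and the unadjusted p was at most 0.0246, and without the library labelled mutant replicate 3 the log2 fold change was 0.51.

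Sqstm1 was also listed with 4 transcripts, 2 of them at 0 in every library. Sqstm1-202, of 2037 bases with 1326 coding bases in GENCODE M21, held 86.7% of the gene's mean FPKM and was at 40.9, 38.2 and 43.8 FPKM in the controls and at 59.2, 53.9 and 45.8 FPKM in the mutants. Sqstm1-201, with 1212 coding bases, was at 3.27, 4.66 and 7.80 FPKM in the controls and at 8.37, 10.9 and 8.28 FPKM in the mutants. For both transcripts the lowest mutant library lay above the highest control library.

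Map1lc3a (ENSMUSG00000027602) and Map1lc3b (ENSMUSG00000031812) encode LC3A and LC3B, the ATG8 proteins most used to follow autophagosomes. Map1lc3a was at 28.4, 24.7 and 33.2 FPKM in the controls and at 29.1, 27.7 and 22.9 FPKM in the mutants. Map1lc3b was at 21.6, 21.5 and 25.1 FPKM in the controls and at 24.7, 21.9 and 23.3 FPKM in the mutants. The groups overlapped for both genes. Control replicate 3 was the highest of the 6 libraries for both, and mutant replicate 3 the lowest for Map1lc3a. The log2 fold change was -0.11 ± 0.13 for Map1lc3a (SE, 95% interval -0.41 to 0.19, adjusted p = 0.744 from limma) and 0.03 ± 0.09 for Map1lc3b (SE, 95% interval -0.18 to 0.25, adjusted p = 0.899 from limma). For Map1lc3a it was -0.0035 without control replicate 3 and -0.0078 without mutant replicate 3, so that leaving out either one removed most of the difference.

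Gabarapl1 (ENSMUSG00000030161), of the GABARAP branch of the ATG8 family, was at 14.2, 14.5 and 15.2 FPKM in the controls and at 19.5, 16.7 and 13.5 FPKM in the mutants. Mutant replicates 1 and 2 were above all controls and mutant replicate 3 below all of them, so the spread was 18.4% of the mean in mutant against 3.54% in control hearts. For Gabarapl1 the log2 fold change was 0.16 ± 0.13 (SE, 95% interval -0.14 to 0.45, adjusted p = 0.603 from limma). Without mutant replicate 1 it was 0.038, and without the library labelled mutant replicate 3 it was 0.29, with an unadjusted p of 0.0216 and an adjusted p of 0.232 from limma.

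**Figure D2:**
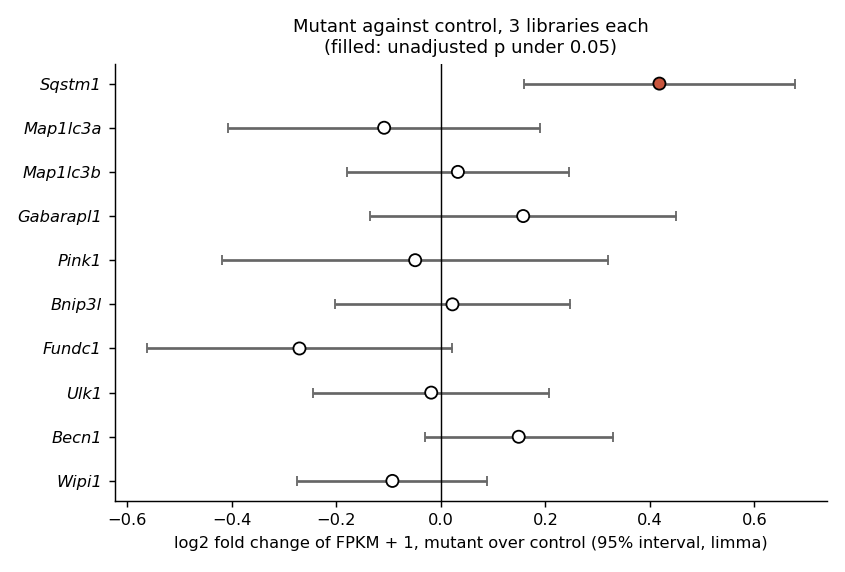
Log2 fold change of FPKM + 1, mutant over control (horizontal axis), of each of the 10 genes with its 95% interval from limma (3 libraries per group); the filled point has an unadjusted p under 0.05. Only the interval of Sqstm1, 0.16 to 0.68, lies wholly above 0, and that of Fundc1, -0.56 to 0.02, reaches just past it.

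Since FPKM is per length, the mRNA of the 5 ATG8 genes in the table could be added within a library. Their sum was 187 ± 14.5 FPKM (SD, n = 3) in control and 189 ± 8.88 FPKM (SD, n = 3) in mutant hearts. Gabarap supplied most of it in every library, 53.7 ± 0.994% in control and 55.2 ± 1.25% in mutant hearts (SD, n = 3). Map1lc3a made up 15.3 ± 1.22% in control and 14.1 ± 1.19% in mutant hearts, and Map1lc3b 12.1 ± 0.161% and 12.3 ± 0.638% (SD, n = 3). Gabarapl2 made up 11.0 ± 0.301% and 9.67 ± 1.28%, and Gabarapl1 7.81 ± 0.354% and 8.75 ± 1.21% (SD, n = 3). The order of the 5 genes by mean share was the same in both groups, but no mutant library alone had it. In mutant replicates 1 and 2 Gabarapl1, at 9.87% and 8.91%, was above Gabarapl2, at 9.21% and 8.68%. In mutant replicate 3 Map1lc3b, at 12.9%, was above Map1lc3a, at 12.7%. In two-sided exact permutation tests p lay between 0.2 and 0.7 and, adjusted over the 5 shares, between 0.375 and 0.7, where 3 against 3 libraries cannot give less than 0.1.

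**Figure D3:**
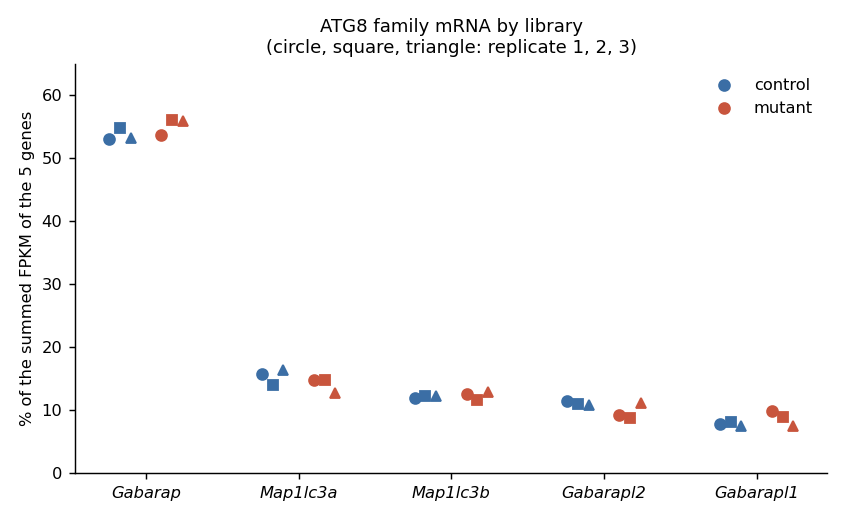
Share of each ATG8 gene (vertical axis, % of the summed FPKM of the 5 genes) in each control and mutant library, 1 point per library. Gabarap lies at or above 53.1% in all 6 libraries and the other 4 genes at or below 16.3%, with overlapping groups for each gene.

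Among the mitophagy genes, Pink1 (ENSMUSG00000028756) encodes the kinase that gathers on damaged mitochondria and marks them for removal with the ubiquitin ligase Parkin. It was at 15.6, 14.3 and 19.5 FPKM in the controls and at 16.1, 12.7 and 19.2 FPKM in the mutants. Replicates 3 were the highest and replicates 2 the lowest in both groups, and the groups overlapped almost wholly. Pink1 thus had a log2 fold change of -0.05 ± 0.16 (SE, 95% interval -0.42 to 0.32, adjusted p = 0.916 from limma), the widest interval of the 10 genes, and of -0.23 with the erythroid level as a covariate. The Parkin gene, listed under its older symbol Park2, was at 0.618 to 0.886 FPKM in control and 0.811 to 1.53 FPKM in mutant hearts and was too low to be tested.

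Bnip3l (ENSMUSG00000022051) encodes NIX, a mitophagy receptor of the outer mitochondrial membrane that is also known for clearing mitochondria from maturing red blood cells. It was at 52.4, 53.9 and 55.3 FPKM in the controls and at 60.4, 48.1 and 56.3 FPKM in the mutants. Mutant replicates 1 and 3 were above all controls and mutant replicate 2 below all of them. The summed FPKM of erythroid markers took the same order in the mutant libraries, 121157, 49358 and 111180, but not in the controls, with 55705, 62241 and 56363. For Bnip3l the log2 fold change was 0.02 ± 0.10 (SE, 95% interval -0.20 to 0.25, adjusted p = 0.940 from limma), and -0.11 with the erythroid level as a covariate.

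Bnip3l had 2 listed transcripts, and Bnip3l-201 held 98.3% of its mean FPKM. The other, Bnip3l-202, was at 2.75, 0.0115 and 2.66 FPKM in the controls and at 0.0231, 0.0159 and 0.0319 FPKM in the mutants. It was above 1 FPKM in only 2 of the 6 libraries, both of them controls, and control replicate 2 was at the level of the mutants.

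Fundc1 (ENSMUSG00000025040) encodes a receptor of the outer mitochondrial membrane that binds LC3 and is known for mitophagy under low oxygen. It was at 11.1, 13.1 and 13.3 FPKM in the controls and at 8.57, 11.8 and 10.3 FPKM in the mutants. Control replicates 2 and 3 were above every mutant library, and control replicate 1 lay between mutant replicates 2 and 3. The log2 fold change of Fundc1, the lowest of the 10, was -0.27 ± 0.13 (SE, 95% interval -0.56 to 0.02, unadjusted p = 0.0653 and adjusted p = 0.367 from limma). With the erythroid level as a covariate it was -0.13, and with each library left out in turn it lay between -0.37, without mutant replicate 2, and -0.16, without mutant replicate 1. The unadjusted p of Fundc1 was under 0.05 in 3 of the 15 other settings.

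Among the genes of initiation and membrane growth, Ulk1 (ENSMUSG00000029512) encodes the kinase that starts autophagosome formation under low nutrients. It was at 10.7, 8.84 and 10.5 FPKM in the controls and at 10.4, 9.59 and 9.55 FPKM in the mutants. All mutant values lay within the control range. Ulk1 thus had a log2 fold change of -0.02 ± 0.10 (SE, 95% interval -0.24 to 0.21, adjusted p = 0.952 from limma), and just above 0, at 0.0034 and 0.0051, under 2 other scalings between libraries.

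Becn1 (ENSMUSG00000035086) encodes Beclin 1, the scaffold of the class III PI3-kinase complex that makes the lipid signal of the growing membrane. It was at 17.4, 18.5 and 17.4 FPKM in the controls and at 20.5, 18.9 and 19.99 FPKM in the mutants. The groups did not overlap, although control replicate 2 and mutant replicate 2 were close. Becn1 thus had a log2 fold change of 0.15 ± 0.08 (SE, 95% interval -0.03 to 0.33, unadjusted p = 0.0924 and adjusted p = 0.414 from limma). Of its 5 transcripts 2 were at 0 in every library, and Becn1-205 held 68.8% of the mean FPKM.

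Wipi1 (ENSMUSG00000041895) encodes a protein that reads this lipid signal on the growing membrane. It was at 15.4, 15.5 and 16.8 FPKM in the controls and at 14.6, 14.7 and 15.3 FPKM in the mutants. The groups did not overlap, but the highest mutant and the lowest control library were close, and under both other scalings between libraries the groups overlapped. For Wipi1 the log2 fold change was -0.09 ± 0.08 (SE, 95% interval -0.27 to 0.09, adjusted p = 0.625 from limma).

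Wipi1 was the gene of the 10 whose FPKM was most evenly divided between transcripts. Wipi1-202 held 51.5% of the mean and was at 6.22, 7.77 and 9.68 FPKM in the controls and at 7.31, 7.49 and 9.08 FPKM in the mutants. Wipi1-201 was at 7.37, 6.40 and 6.59 FPKM in the controls and at 6.53, 6.22 and 5.73 FPKM in the mutants. The groups overlapped for each transcript alone, and with Wipi1-202 in place of the sum the log2 fold change was 0.02. Over the 10 genes 32 transcripts were listed, 8 of them at 0 in every library, and in 5 genes 1 transcript held over 90% of the mean FPKM.

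By level, Bnip3l stood above Sqstm1 in control hearts, and in mutant hearts Sqstm1, with a mean of 62.1 FPKM, stood above Bnip3l, with 54.9 FPKM. The mutant ranges of the pair overlapped, and in mutant replicate 3 Bnip3l, at 56.3 FPKM, was above Sqstm1, at 54.1 FPKM. In control hearts the means were 53.8 FPKM for Bnip3l, 46.2 for Sqstm1, 28.8 for Map1lc3a and 22.7 for Map1lc3b. They went down through 17.8 FPKM for Becn1, 16.5 for Pink1, 15.9 for Wipi1, 14.6 for Gabarapl1 and 12.5 for Fundc1 to 10.01 for Ulk1. The control ranges of neighbours overlapped between Map1lc3a and Map1lc3b, Becn1 and Pink1, and Pink1 and Wipi1. By mean FPKM over the 6 libraries the 10 genes stood between the percentiles 52.5 (Ulk1) and 92.5 (Bnip3l) of the genes tested.

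Another 86 genes of the autophagy route were looked up, and 84 passed the filter and were tested. Of these, 6 were higher and 3 lower in mutant hearts at an unadjusted p under 0.05, or 10.7% in all against 15.0% of all genes. No gene of the 84 had an adjusted p under 0.05 in limma. Without the library labelled mutant replicate 3 the counts were 15 genes at an unadjusted and 2 at an adjusted p under 0.05, against 15.3% and 1.98% of all genes in that fit. With the erythroid level as a covariate they were 5 and 0, against 10.2% and 0.0679% of all genes. Values of the groups did not overlap in 19 genes, 11 higher and 8 lower, or 22.6% against 20.8% of all genes, and the median log2 fold change was 0.02. Of the 2 genes not tested, Parkin is given above, and Atg2a, a lipid transfer gene, is listed at 0 in every library, which in a table without read counts can be a failed estimate.

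The largest of these differences stood among the nutrient and energy regulators, where 3 of 12 genes had an unadjusted p under 0.05 against 15.0% of all genes. Sesn2, whose product Sestrin 2 restrains the growth kinase mTORC1 when amino acids are short, was at 2.77, 3.18 and 2.49 FPKM in the controls and at 10.9, 9.43 and 4.95 FPKM in the mutants. Every mutant library was above every control, with mutant replicate 3 the lowest of the mutants. For Sesn2 the log2 fold change was 1.25 ± 0.24 (SE, unadjusted p = 0.000667 and adjusted p = 0.106 from limma), and without the library labelled mutant replicate 3 it was 1.55, with an adjusted p of 0.000935 from limma. Ddit4, another inhibitor of mTORC1 signalling, had a log2 fold change of 0.56 ± 0.23 (SE, adjusted p = 0.313 from limma) with mutant replicate 3, at 7.21 FPKM, within the control range of 7.06 to 7.55 FPKM. Without that library Ddit4 was at 0.84, with an adjusted p of 0.0246 from limma, and without mutant replicate 1 it was at 0.30, with an unadjusted p of 0.131. The unadjusted p of Ddit4 was not under 0.05 in 8 of 15 other settings. The third gene, Sesn1, named here after its value was seen, had a log2 fold change of -0.19.

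The group of the lysosome and its transcription factors held 3 of 12 genes with an unadjusted p under 0.05, all higher in mutant hearts, against 5.58% of all genes in that direction and 15.0% in either. The groups did not overlap in 6 of the 12, 4 higher and 2 lower, against 20.8% of all genes. Ctsl, a cysteine protease of the lysosome, was at 48.5, 50.8 and 53.7 FPKM in the controls and at 66.1, 82.5 and 73.1 FPKM in the mutants. All mutant libraries were above all controls, with mutant replicate 3 in the middle of the mutants. Ctsl thus had a log2 fold change of 0.52 ± 0.10 (SE, unadjusted p = 0.000701 and adjusted p = 0.106 from limma). Ctsb, a related protease, had a log2 fold change of 0.30 ± 0.11 (SE, adjusted p = 0.256 from limma). It was at 0.20 without the library labelled mutant replicate 3 and at 0.19 with the erythroid level as a covariate, with unadjusted p of 0.0686 and 0.144 from limma. Tfe3, Tfeb and Mitf, transcription factors of lysosomal genes, are named here after their values were seen. Tfe3 had a log2 fold change of 0.25, while Tfeb and Mitf were at -0.21 and -0.26 with unadjusted p of 0.0631 and 0.0801 from limma.

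CACGTG stood in the RefSeq window of 15 of the 73 other autophagy genes that matched, and ACGTG in 37, while TGATGCAA stood in none, against 7.15%, 19.6% and 0.895% of all promoters. Of the 15 genes with CACGTG, 9 lay above and 6 below 0, with a median log2 fold change of 0.02, 1 had an unadjusted p under 0.05 in limma, against 15.0% of all genes, and none an adjusted p under 0.05. Their groups did not overlap in 5 genes, 3 higher and 2 lower, against 20.8% of all genes, the lower ones being Retreg1 and the mitophagy ligase gene Mul1, named after its values were seen. Lysosomal protease genes with CACGTG before their start, chosen after their values were seen, are shown here as examples, both on the minus strand of GRCm38.p6, with capitals for CACGTG.
Ctsl, chr13:64370724-64370770: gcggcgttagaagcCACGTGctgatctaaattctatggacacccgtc
Ctsd, chr7:142388040-142388077: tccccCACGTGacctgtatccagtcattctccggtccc
Ctsd, chr7:142387893-142387952: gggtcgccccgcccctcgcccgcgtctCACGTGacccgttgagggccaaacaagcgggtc
The first base of CACGTG lay 236 bases before the start of Ctsl, and those of the 2 copies of Ctsd 245 and 98 bases before its start. Ctsd, a gene of the aspartic protease cathepsin D, was at 99.7, 100.2 and 107.6 FPKM in the controls and at 109.7, 114.1 and 126.2 FPKM in the mutants, with a log2 fold change of 0.18 (adjusted p = 0.372 from limma). Mcoln1, a lysosomal channel gene that also held CACGTG, had a log2 fold change of -0.05 (adjusted p = 0.892 from limma), and Lamp1, a lysosomal membrane gene with 4 copies, one of 0.16 (adjusted p = 0.445 from limma), both named after their values were seen. The groups overlapped for Mcoln1 and Lamp1 and not for the proteases.

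In the other groups few genes stood out. Atg9a, which encodes the membrane protein of the vesicles that seed the autophagosome, had a log2 fold change of 0.37 ± 0.10 (SE, adjusted p = 0.166 from limma), with 6.76 to 7.79 FPKM in control and 9.11 to 10.6 FPKM in mutant hearts. Atg10, the enzyme that joins ATG12 to ATG5, was at -0.31 ± 0.10 (SE, adjusted p = 0.231 from limma), with 5.24 to 6.40 FPKM in control and 4.15 to 4.61 FPKM in mutant hearts. Nbr1, a cargo receptor built like p62, was at -0.21 ± 0.08 (SE, adjusted p = 0.294 from limma), with 21.1 to 23.5 FPKM in control and 18.8 to 19.9 FPKM in mutant hearts. The groups did not overlap for any of these 3 genes, and Nbr1 lay in the opposite direction to Sqstm1. Each was the only gene of its group with an unadjusted p under 0.05, of 8 genes of phagophore growth, 10 of conjugation and 8 other cargo receptors, against 15.0% of all genes. In other settings that p was not under 0.05 in 1 of 15 for Atg9a, 3 for Atg10 and 7 for Nbr1.

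None of the 5 genes of the ULK kinase complex tested beside Ulk1 had an unadjusted p under 0.05, against 15.0% of all genes, and all 5 had log2 fold changes below 0, from -0.13 to -0.02, the lowest for Ulk3 (adjusted p = 0.659 from limma) and Atg101 (adjusted p = 0.575 from limma). The 7 genes of the class III PI3-kinase complex tested beside Becn1 lay between -0.0047 and 0.23, with none at an unadjusted p under 0.05, again against 15.0% of all genes. In that complex Nrbf2, a regulatory subunit, had the smallest p, with a log2 fold change of 0.23 (adjusted p = 0.476 from limma), followed by the inhibitor gene Rubcn with 0.13 (adjusted p = 0.740 from limma). With 1 library left out, Ulk3 was at -0.05 without control replicate 1, Atg101 at -0.05 without control replicate 2, Nrbf2 at 0.07 without control replicate 3 and Rubcn at -0.02 without control replicate 2.

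Neither the 11 other mitophagy factors nor the 9 genes of autophagosome fusion held a gene with an unadjusted p under 0.05, against 15.0% of all genes, although in other settings that p was under 0.05 for Phb2 in 6 of 15, for Vamp8 in 3 of 15, for Tecpr1 in 2 of 14 and for Fundc2 in 1 of 15. Phb2, a prohibitin of the inner mitochondrial membrane that binds LC3, had a log2 fold change of 0.23 (adjusted p = 0.335 from limma), and Fundc2, the relative of Fundc1, was at -0.16 (adjusted p = 0.445 from limma). Fundc1 and Fundc2 were thus both below the control mean, neither past the unadjusted threshold. The fusion genes Tecpr1 and Vamp8 had log2 fold changes of -0.22 (adjusted p = 0.343 from limma) and -0.29 (adjusted p = 0.390 from limma). Retreg1, a receptor for the endoplasmic reticulum, was at -0.26 (adjusted p = 0.342 from limma), the ATG8 gene Gabarapl2 at -0.18 (adjusted p = 0.435 from limma) and Gabarap at 0.05 (adjusted p = 0.820 from limma). Zfyve1, a marker of the membrane from which autophagosomes grow, was at -0.19 (adjusted p = 0.516 from limma) and the conjugating enzyme gene Atg3 at 0.08 (adjusted p = 0.715 from limma). Several of these values rested in part on 1 library, since Vamp8 was at -0.17 and Gabarapl2 at -0.11 without mutant replicate 2, Retreg1 at -0.14 without mutant replicate 1 and Zfyve1 at -0.08 without mutant replicate 3. Gabarap was at 0.02 without control replicate 1 and Atg3 at 0.03 without control replicate 3.

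**Figure D4:**
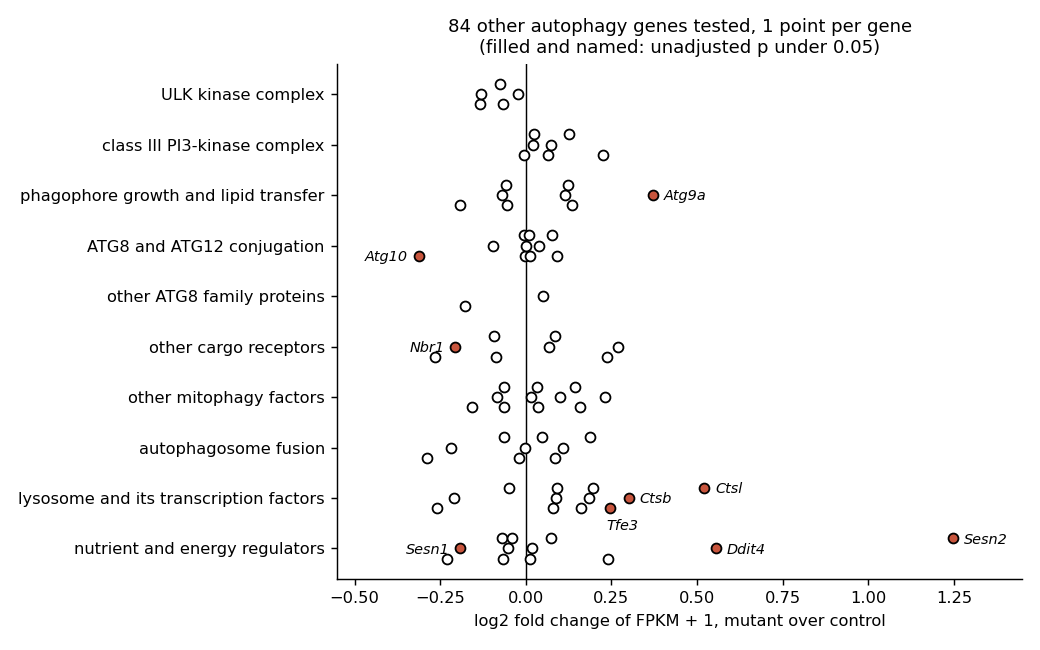
Log2 fold change of FPKM + 1, mutant over control (horizontal axis), of 84 other autophagy genes by group (vertical axis), 1 point per gene; filled, named points have an unadjusted p under 0.05 in limma. Sesn2 at 1.25 lies apart from the other genes, and 5 more filled points are above 0 and 3 below it.

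The values of the 10 genes were recomputed under 15 other settings of the fit. Sqstm1, Gabarapl1 and Becn1 stayed above 0 and Map1lc3a and Fundc1 below 0 in all of them, whereas Map1lc3b, Pink1, Bnip3l, Ulk1 and Wipi1 changed sign in at least 1. A kept sign is no sign of stability here, since Map1lc3a came as near to 0 as -0.0035 and Gabarapl1 as 0.038 with 1 library left out. No setting gave an adjusted p under 0.05 to any of the 10, the lowest being the 0.0616 of Sqstm1 in limma.

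**Figure D5:**
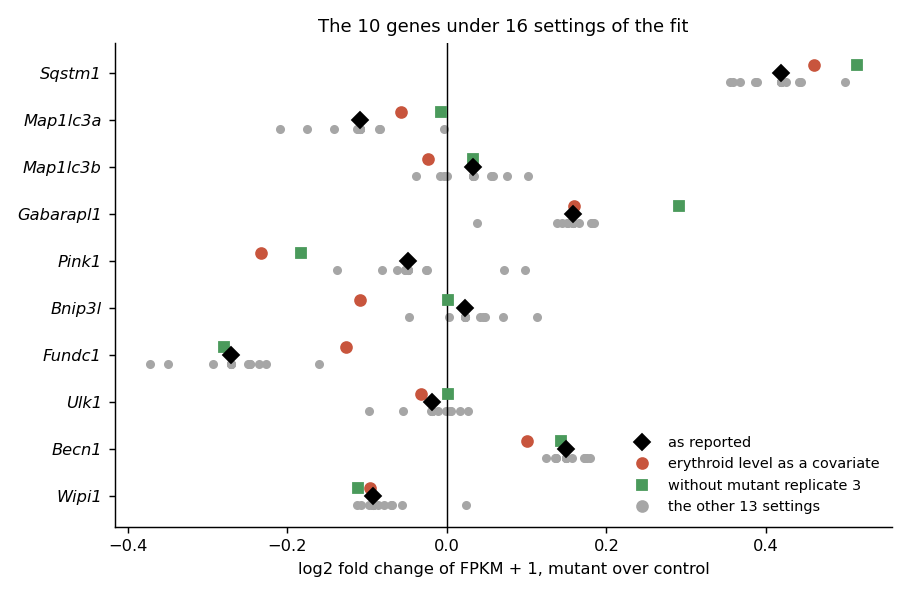
Log2 fold change of FPKM + 1, mutant over control (horizontal axis), of each of the 10 genes under 16 settings, with the reported fit as black diamonds, the fit with erythroid level as a covariate as red circles, the fit without mutant replicate 3 as green squares and the other 13 settings in grey. Sqstm1, Gabarapl1 and Becn1 stay to the right of 0 and Map1lc3a and Fundc1 to its left.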

How the data were processed

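RNA of control and mutant hearts, 3 libraries each, was sequenced, and the authors deposited 1 table of FPKM values with 1 value per transcript and library. The submitters' processing notes name mm9, Bowtie2 2.2.8, HISAT2, StringTie 1.3.1 and Cuffdiff 2.1.1 without saying what each was used for, and counting by strand is not stated. No read counts are given, so the depth is unknown, and a rough relative depth read from the lowest values spanned 1 to 1.61. FPKM of the 60776 transcripts were summed over 26199 genes, 1 was added, and log2 values were compared with limma 3.58.1 (R 4.3.3, eBayes with trend) over 13262 genes with at least 1 FPKM in at least 3 of 6 libraries, with Benjamini-Hochberg adjustment. Adding 1 understates fold changes of low genes. Shares of ATG8 genes were compared with exact permutation tests (scipy 1.17.1). Transcript names are from GENCODE M21 and promoters from RefSeq, both on GRCm38, and no coordinates of the table were used. The script for the fit was tested on simulated data. The 10 genes and the lists were chosen with earlier results of these data known. Beyond the 10 genes and Mrps5, the text names the 2 genes with the smallest p in each group of other autophagy genes, and genes named after their values were seen are given as such. Replicates are biological by the labels. Alternatives covered the value added, filters, scalings, single transcripts, variance model, replicate block, erythroid level and each library left out.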

Additional observations from a re-analysis of the deposited data

How the results depend on the processing

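Under 15 alternatives, 445 of 463 gene values kept their direction and side of the threshold, 16 changed sign and 2 gained the threshold, Sesn2 and Ddit4, both without the library labelled mutant replicate 3. On the log2 fold change scale, with the erythroid level as a covariate Pink1 moved most of the 10 genes, from -0.049 to -0.23, and Bnip3l was at -0.11 and Map1lc3b at -0.024. With the most abundant transcript alone Map1lc3b was at -0.038 and Wipi1 at 0.024, and the share of Map1lc3b differed by -0.315 percentage points where the sum gave 0.202. Ulk1 was at 0.0034 with median-of-ratios scaling and at 0.0051 when scaled without erythroid markers. With each library left out in turn Bnip3l spanned -0.048 to 0.11, lowest without mutant replicate 1, Pink1 -0.18 to 0.098, above 0 without control replicate 3 or mutant replicate 2, and Ulk1 -0.097 to 0.027, above 0 without control replicate 1 or 3 or mutant replicate 3. Map1lc3b spanned -0.0090 to 0.10, below 0 without control replicate 1 or 2 or mutant replicate 1, and Rubcn -0.024 to 0.26, lowest without control replicate 2. Map1lc3a spanned -0.21 to -0.0035, nearest to 0 without control replicate 3 or mutant replicate 3. The cause was not tested.

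Of the 10 genes, 1 had an unadjusted p under 0.05 in limma, 2 with no filter on low values, Sqstm1 and Becn1, against 11.9% of all genes, and 1 to 2 with a library left out, 2 without control replicate 1, mutant replicate 2 or mutant replicate 3. With a library left out the count of genes whose groups did not overlap was 3 to 5, and the median log2 fold change -0.052 to 0.087, both highest without mutant replicate 2, while 26.8% to 35.7% of all genes did not overlap in those fits. That count of genes not overlapping was 2 under both other scalings and with the most abundant transcript alone, each time without Wipi1. Of the other autophagy genes 9 had an unadjusted p under 0.05, 5 with the most abundant transcript alone or the erythroid level as a covariate, against 12.2% and 10.2% of all genes, and 6 to 15 with a library left out, against 9.01% to 16.6%. An adjusted p under 0.05 was held by 0 to 2 of them, both counts highest without mutant replicate 3. Over all genes the count of adjusted calls, 11 in the reported fit, was 123 without mutant replicate 2 and 261 without mutant replicate 3, 16 with 0.1 added, 9 with the erythroid covariate, 6 without the trend and between 3 and 7 with no filter, the most abundant transcript, the replicate block or another library left out.

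Deviations of same-numbered control and mutant libraries correlated at 0.215, 0.108 and 0.0892, and each library correlated best with its own number, but not every pair passed 0.1 and nothing in the labels ties the numbers, so they were not taken as pairs. With the replicate number as a block 2 of the 10 genes had an unadjusted p under 0.05, against 16.7% of all genes, Sqstm1 at 0.0150 and Fundc1 at 0.0224 (adjusted p of 0.201 and 0.224 in limma), and 4 of all genes an adjusted p under 0.05. Unknown depth and 3 libraries per group limit what could be detected.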
